A study of Homo sapiens with 9 samples.

Results

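The transcripts described are those of 55 genes of mitosis, the kinetochore and the spindle. The list was written by name from what the genes are known to do. Earlier results of these data were known when it was chosen, so its counts describe the list and are no independent test. A gene counted as measured where a probe set in the deposited array table carried its symbol alone. By that rule 54 of the 55 were measured, each by 1 probe set, among 9784 genes in all. The remaining gene, the checkpoint kinase BUB1B, had only a probe set shared with PAK6 and was left without a value.

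Mitosis begins when the kinase CDK1, held by cyclins A and B, phosphorylates many proteins so that chromosomes condense and a spindle of microtubules forms. Kinetochores, built on the centromere of each chromatid, take hold of the microtubules, and a checkpoint holds back the anaphase-promoting complex until every chromosome is attached. Separase then cuts the cohesin that ties sister chromatids, and the midzone and an actomyosin ring divide the cell. Transcripts of these genes accumulate in G2 and mitosis and are low in resting cells, so that in liver they mark dividing cells, tumour cells among them.

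Huh7 is a human hepatocellular carcinoma cell line, and sorafenib is a multikinase inhibitor given for that cancer. Of each of 3 groups 3 arrays were compared. The first was Huh7-R-A7, a resistant clone raised from 1 colony picked out of Huh7-R, the second Huh7-R, a resistant pool, and the third Huh7-S, the untreated parental cells. To select the pool, Huh7-S cells had been pulsed with 10 µM sorafenib for 4 hours each week over 6 weeks and then kept in sorafenib raised to 6 µM, with DMSO as its carrier. The drug was taken away 5 to 7 days before the experiments, so both resistant groups were measured without it. By the array titles there was 1 pool and 1 clone, and no drug-treated Huh7-S array was analysed here. The arrays of a group are biological replicates per the study's methods, and their number limits the precision of each mean. The descriptions of clone replicates 2 and 3 name another clone beside A7, so that the labels leave unsettled whether the Huh7-R-A7 mean and its error cover 1 clone or several.

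Values are RMA log2 signals, in which 1 unit is a doubling, and are given throughout in the order of replicates 1, 2 and 3. The medians of the 9 arrays lay between 8.22 and 8.38, and no member was below 6.94 on any array, where log2 6 was taken as noise. Hepatocyte-lineage markers were present, since ALB, which encodes albumin, was at or above 14.66 on all 9 arrays, but 7 of the 10 measured markers fell in Huh7-R-A7 (median log2 difference -1.55) and 8 in Huh7-R (-1.52). Among all genes 24.6% and 26.2% were called lower in these groups. Of the markers of other cell types, only LUM of 8 stromal genes and CD68 of 9 blood and endothelial genes were measured, and both were higher in the resistant groups, LUM by 3.58 and 3.35 and CD68 by 4.17 and 3.84 on the log2 scale in Huh7-R-A7 and in Huh7-R. In Huh7-S, LUM lay between 5.22 and 5.43, under that limit, so that its difference has no exact size, and CD68 read 11.09, 8.47 and 8.11 there. Their part in the mitotic results was not tested. Replicate 1 of Huh7-S stood apart from the other parental arrays, with 80 genes more than 2 log2 units from the mean of those arrays, against 13 and 19 for replicates 2 and 3. No member was among the 80.

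Most of the measured genes of mitosis were lower in both resistant groups, and none passed as higher. Of the 54 members 36 fell in Huh7-R-A7 compared with Huh7-S (66.7%), where 24.6% of all genes tested were called lower (limma, Benjamini-Hochberg adjusted p below 0.05). The median log2 difference of the members was -0.62, or 1.54-fold lower, with a range of -2.05 to 0.03, and that of all genes was -0.04. In Huh7-R against Huh7-S, 41 of 54 fell (75.9%), where 26.2% of all genes were called lower, with a median of -0.67, or 1.59-fold lower, and a range of -2.17 to -0.08, against a median of -0.03 for all genes. Many genes hold equal values on some arrays. Among genes with 9 different values the share called lower was higher, 37.7% in Huh7-R-A7 and 39.1% in Huh7-R. Of the 46 members among them, 36 and 38 fell. In limma 0 members passed as higher in either comparison, where 18.0% and 19.0% of all genes were called higher in Huh7-R-A7 and in Huh7-R. At an unadjusted p below 0.05, 0 members were higher as well, against 2101 and 2151 of the 9784 genes.

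On the arrays themselves, 41 members had every Huh7-R-A7 value below every Huh7-S value, as had 30.2% of all genes, and 45 had every Huh7-R value below every Huh7-S value, as had 30.1% of all genes. Both comparisons use the same 3 Huh7-S arrays and are therefore not independent of each other. In RNA from whole cultures, fewer cells in mitosis and less of each transcript per dividing cell cannot be told apart. Without replicate 1 of Huh7-S, 28 members fell in Huh7-R-A7 (median -0.57), where 25.4% of all genes were called lower, and 36 in Huh7-R (median -0.67), where 26.5% were.

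**Figure D1:**
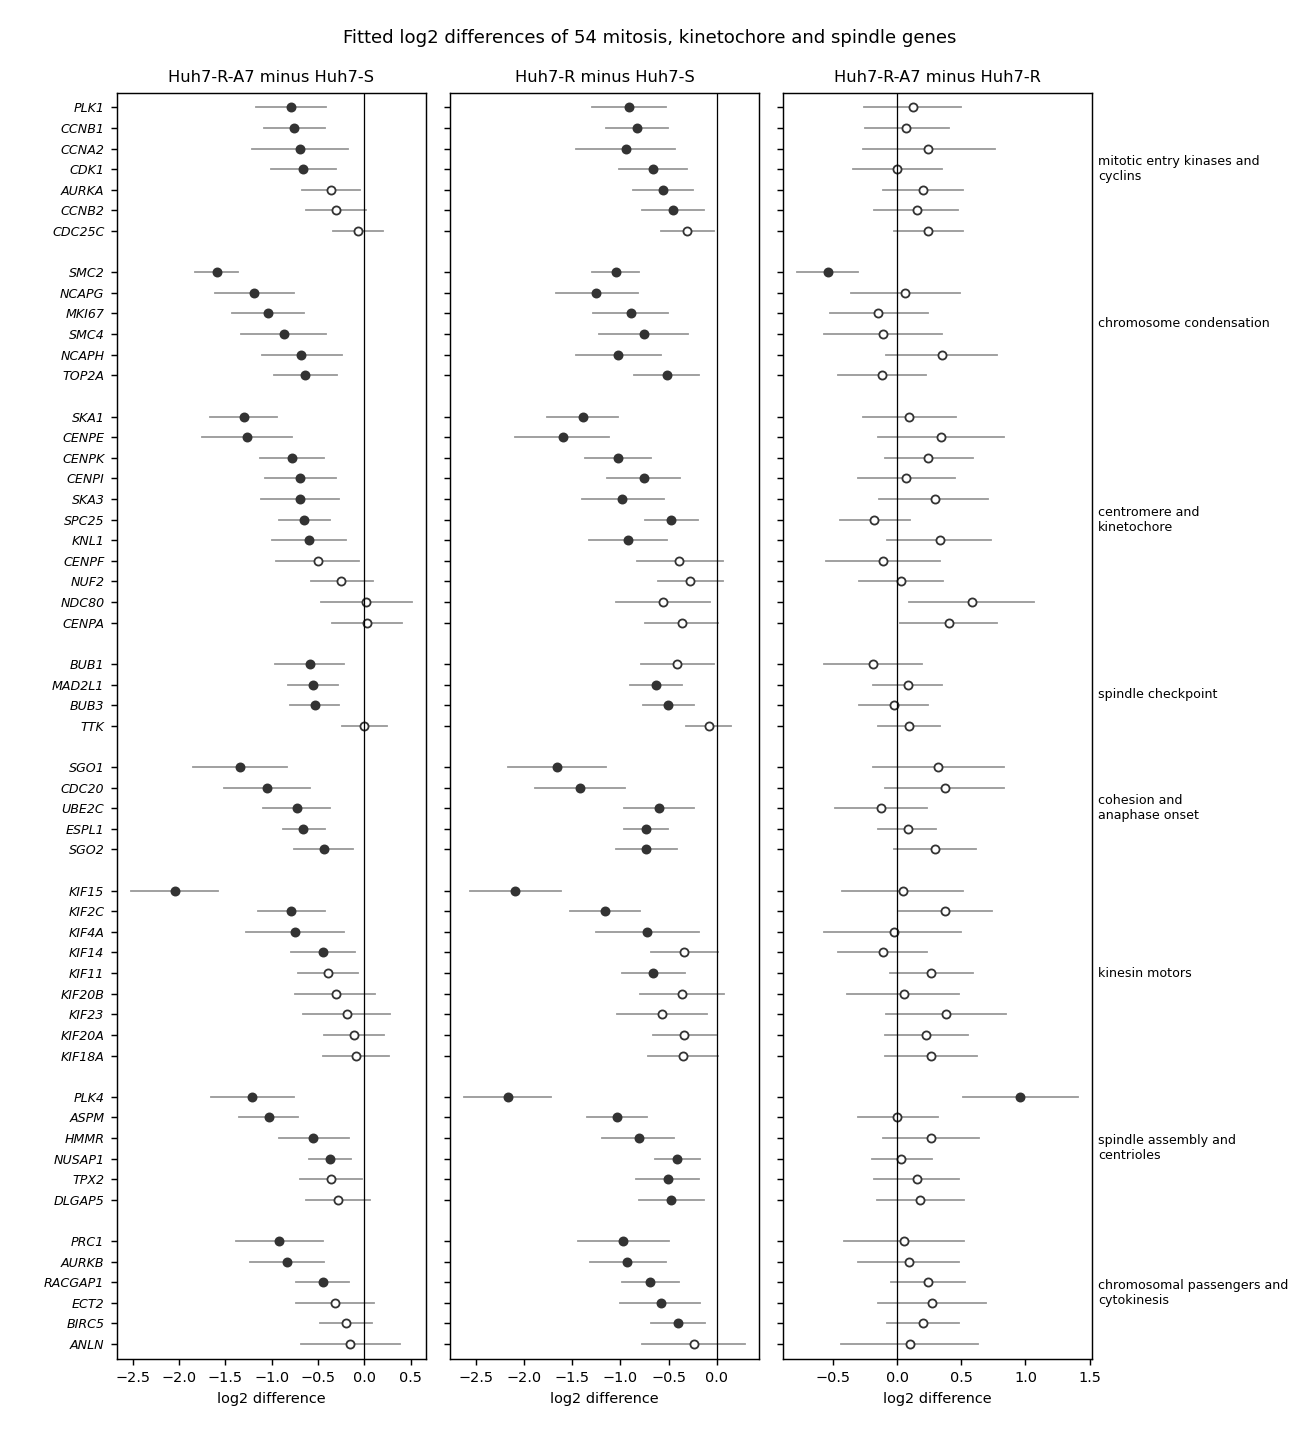
Fitted log2 differences (x axis) of the 54 measured genes (y axis, grouped by role), for Huh7-R-A7 minus Huh7-S, Huh7-R minus Huh7-S and Huh7-R-A7 minus Huh7-R, with bars for 95% intervals and filled points for an adjusted p below 0.05. In both comparisons with Huh7-S no point lies right of 0.03 and most lie left of 0, down to -2.05 and -2.17, and between clone and pool only SMC2 and PLK4 are filled.

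Promoters were read for the 3 members that differed most between Huh7-R-A7 and Huh7-S, because the members moved in one direction and many late cell cycle genes are known to share promoter elements. The sequences run from 250 bases before to 50 bases after the RefSeq transcript start in GRCh38.p14, and capitals mark matches to 3 motifs searched on both strands: the cell cycle genes homology region or CHR (TTTGAA or the variant TTCGAA), the CCAAT box (CCAAT) and an E2F site (TTTGGCG or the variant TTTCGCG), each also in its reverse complement. KIF15 lies at chr3:44761544-44761843 on the plus strand, SMC2 at chr9:104094059-104094358 on the plus strand (the first listed of its promoters), and SGO1 at chr3:20186157-20186456 on the minus strand.
KIF15: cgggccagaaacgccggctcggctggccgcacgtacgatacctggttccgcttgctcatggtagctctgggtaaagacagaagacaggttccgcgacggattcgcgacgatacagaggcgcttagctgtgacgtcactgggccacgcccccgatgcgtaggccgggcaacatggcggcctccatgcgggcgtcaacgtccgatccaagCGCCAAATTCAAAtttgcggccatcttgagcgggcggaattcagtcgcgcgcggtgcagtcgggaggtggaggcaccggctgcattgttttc
SMC2: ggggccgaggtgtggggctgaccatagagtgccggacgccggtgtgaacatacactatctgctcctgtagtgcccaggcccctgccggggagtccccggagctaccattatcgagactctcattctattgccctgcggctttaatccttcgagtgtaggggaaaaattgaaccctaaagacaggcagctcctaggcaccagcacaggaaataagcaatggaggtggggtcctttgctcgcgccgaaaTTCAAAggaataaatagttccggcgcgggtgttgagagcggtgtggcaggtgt
SGO1: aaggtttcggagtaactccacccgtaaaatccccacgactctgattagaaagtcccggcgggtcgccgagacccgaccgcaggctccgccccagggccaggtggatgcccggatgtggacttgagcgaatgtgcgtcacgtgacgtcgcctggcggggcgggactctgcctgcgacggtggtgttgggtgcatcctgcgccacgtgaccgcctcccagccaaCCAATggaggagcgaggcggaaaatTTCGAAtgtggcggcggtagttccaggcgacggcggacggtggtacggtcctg
In KIF15 an E2F site runs straight into a CHR, 42 bases before the start, and no CCAAT box was found in the window. The single match in the SMC2 promoter shown is a CHR that begins 3 bases before the start. The other promoter listed for SMC2 held none of the 3 motifs. SGO1 holds a CCAAT box 28 bases and a CHR 3 bases before the start.

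A CHR stood in 39 of the 57 promoters listed for 46 of the members (68.4%), against 16.4% of the 35116 promoters of the same length in the table and 13.1% of those of the genes tested. Members called lower in both resistant groups had a CHR in 22 of 37 promoters (59.5%) and the other members in 17 of 20, a difference that was not tested. The CCAAT box stood in 66.7% of the promoters of members, against 34.6% of all promoters in the table and 36.0% of those of the genes tested. For the E2F site these shares were 10.5%, against 3.2% and 5.1%, and for a CHR together with a CCAAT box 49.1%, against 6.4% and 5.5%. Of 118 promoters listed for 88 mitotic genes outside the list, 39.0% held a CHR and 54.2% a CCAAT box. An E2F site stood in 13.6% of these promoters, more than in those of members, and a CHR together with a CCAAT box in 28.0%. Both motifs together stood in 40.5% of the promoters of members called lower in both groups and in 65.0% of those of the other members. The CHR is known to be bound by MuvB complexes (DREAM and B-MYB-MuvB), the CCAAT box by NF-Y and the E2F site by E2F proteins. A match is only these letters in this window and says nothing of binding in Huh7 cells. AURKA, BIRC5, BUB3, KNL1, RACGAP1, TPX2, TTK and UBE2C had no entry in the table.

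Of the 7 kinases, cyclins and phosphatases of mitotic entry, 4 fell in Huh7-R-A7 (median log2 difference -0.66) and 6 in Huh7-R (-0.66). Beside this and each later role, the shares of all genes called lower were 24.6% in Huh7-R-A7 and 26.2% in Huh7-R. PLK1, the polo-like kinase that drives entry and spindle maturation, read 13.43, 13.12 and 12.98 in Huh7-R-A7, 13.37, 12.93 and 12.87 in Huh7-R, and 14.13, 13.90 and 13.88 in Huh7-S. All 6 resistant values were below the 3 parental values, and the transcript was 1.73-fold lower in Huh7-R-A7 (log2 difference -0.79, SE 0.16, adjusted p = 0.0059) and 1.88-fold lower in Huh7-R (log2 difference -0.91, SE 0.16, adjusted p = 0.0029). CCNB1, the cyclin B1 partner of CDK1, read 12.42, 12.07 and 12.23 in Huh7-R-A7, 12.42, 12.09 and 11.98 in Huh7-R, and 12.86, 13.15 and 12.97 in Huh7-S. Again the resistant arrays did not overlap the parental ones, and CCNB1 was 1.69-fold lower in Huh7-R-A7 (log2 difference -0.76, SE 0.14, adjusted p = 0.0034) and 1.78-fold lower in Huh7-R (log2 difference -0.83, SE 0.14, adjusted p = 0.0021). CCNA2, which encodes cyclin A2 of S phase and G2, read 13.88, 13.37 and 13.42 in Huh7-R-A7, 13.71, 13.17 and 13.05 in Huh7-R, and 14.55, 14.16 and 14.03 in Huh7-S. It was 1.62-fold lower in Huh7-R-A7 (log2 difference -0.70, SE 0.22, adjusted p = 0.036) and 1.92-fold lower in Huh7-R (log2 difference -0.94, SE 0.22, adjusted p = 0.01), but the closest arrays, clone replicate 1 and parental replicate 3, were near each other and the call in Huh7-R-A7 was lost without Huh7-R-A7 replicates 2 or 3, Huh7-R replicate 2 or Huh7-S replicates 1 or 2 (adjusted p = 0.054 to 0.11). CDK1 itself was 1.58-fold lower in both groups (log2 difference -0.66, SE 0.15, adjusted p = 0.0092 in Huh7-R-A7 and 0.0088 in Huh7-R). AURKA, a kinase of centrosome maturation, fell in Huh7-R (log2 difference -0.56, adjusted p = 0.011), with -0.36 in Huh7-R-A7 (0.064), and CCNB2, or cyclin B2, likewise passed in Huh7-R (-0.45, 0.031) and not in Huh7-R-A7 (-0.31, 0.12). The CCNB2 call was lost without Huh7-R replicates 2 or 3 or Huh7-S replicates 1 or 2 (adjusted p = 0.063 to 0.095) or with only the 6 arrays compared (0.059). CDC25C, the phosphatase that activates CDK1, did not pass in Huh7-R-A7 (log2 difference -0.07, 95% interval -0.34 to 0.20, adjusted p = 0.68) or in Huh7-R (log2 difference -0.31, 95% interval -0.58 to -0.03, adjusted p = 0.065).

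All 6 chromosome condensation genes fell in both groups, with a median of -0.96 in Huh7-R-A7 and -0.96 in Huh7-R. SMC2, a core ATPase of both condensin complexes, read 9.98, 9.76 and 9.82 in Huh7-R-A7, 10.61, 10.32 and 10.25 in Huh7-R, and 11.42, 11.43 and 11.49 in Huh7-S. The 3 groups did not overlap, with the clone lowest, the pool between and the parental cells highest, and SMC2 was 3.01-fold lower in Huh7-R-A7 (log2 difference -1.59, SE 0.10, adjusted p = 2e-05) and 2.07-fold lower in Huh7-R (log2 difference -1.05, SE 0.10, adjusted p = 0.00014). NCAPG, a subunit of condensin I, read 13.41, 12.99 and 13.04 in Huh7-R-A7, 13.48, 12.85 and 12.92 in Huh7-R, and 14.46, 14.27 and 14.27 in Huh7-S. Every resistant array lay well under the parental ones, and NCAPG was 2.27-fold lower in Huh7-R-A7 (log2 difference -1.19, SE 0.18, adjusted p = 0.0014) and 2.38-fold lower in Huh7-R (log2 difference -1.25, SE 0.18, adjusted p = 0.0011). MKI67, whose product Ki-67 coats mitotic chromosomes and serves as the usual marker of proliferation, read 13.80, 13.35 and 13.40 in Huh7-R-A7, 13.98, 13.49 and 13.52 in Huh7-R, and 14.70, 14.51 and 14.46 in Huh7-S. It was 2.06-fold lower in Huh7-R-A7 (log2 difference -1.04, SE 0.17, adjusted p = 0.0017) and 1.86-fold lower in Huh7-R (log2 difference -0.89, SE 0.17, adjusted p = 0.0035), with no overlap of resistant and parental arrays. The other members were SMC4, the partner of SMC2 (-0.87 in Huh7-R-A7, -0.76 in Huh7-R), NCAPH, the kleisin of condensin I (-0.68 and -1.02), and TOP2A, the topoisomerase that untangles sister chromatids (-0.64 and -0.52), with adjusted p between 0.0032 and 0.021. Calls were lost for NCAPH in Huh7-R-A7 without Huh7-R-A7 replicates 2 or 3 or Huh7-S replicates 1 or 2 (adjusted p = 0.055 to 0.076), and in Huh7-R for SMC4 without Huh7-R replicates 2 or 3 or Huh7-S replicates 2 or 3 (adjusted p = 0.05 to 0.057) and TOP2A without Huh7-R replicates 2 or 3 or Huh7-S replicate 1 (adjusted p = 0.058 to 0.075).

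Of the 11 centromere and kinetochore genes, 7 fell in Huh7-R-A7 (median log2 difference -0.65) and 7 in Huh7-R (-0.76), among them the SKA subunits SKA1 and SKA3 and, of the 3 NDC80 complex genes on the list, SPC25. SKA1, of the SKA complex that couples kinetochores to microtubule ends, read 10.50, 10.21 and 10.12 in Huh7-R-A7, 10.44, 10.05 and 10.07 in Huh7-R, and 11.33, 11.68 and 11.73 in Huh7-S. The resistant and parental values were far apart, and SKA1 was 2.47-fold lower in Huh7-R-A7 (log2 difference -1.30, SE 0.16, adjusted p = 0.00041) and 2.63-fold lower in Huh7-R (log2 difference -1.39, SE 0.16, adjusted p = 0.0003). CENPE, the kinesin that brings chromosomes to the spindle equator, read 11.70, 11.21 and 11.33 in Huh7-R-A7, 11.49, 10.76 and 10.97 in Huh7-R, and 12.46, 12.75 and 12.83 in Huh7-S. Replicate 1 was the highest of each resistant group yet still below all parental arrays, and CENPE was 2.41-fold lower in Huh7-R-A7 (log2 difference -1.27, SE 0.21, adjusted p = 0.002) and 3.04-fold lower in Huh7-R (log2 difference -1.60, SE 0.21, adjusted p = 0.00061). CENPK, of the constitutive centromere network, read 10.39, 10.03 and 10.00 in Huh7-R-A7, 10.20, 9.69 and 9.81 in Huh7-R, and 10.88, 10.95 and 10.95 in Huh7-S. It too showed no overlap and was 1.72-fold lower in Huh7-R-A7 (log2 difference -0.78, SE 0.15, adjusted p = 0.0037) and 2.04-fold lower in Huh7-R (log2 difference -1.03, SE 0.15, adjusted p = 0.00098).

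Of the other kinetochore genes, SKA3 (-0.69 in Huh7-R-A7, -0.98 in Huh7-R), CENPI (-0.69 and -0.76), the scaffold KNL1 (-0.60 and -0.92) and SPC25 of the NDC80 complex (-0.65 and -0.47) fell in both groups, with adjusted p between 0.003 and 0.025. In Huh7-R-A7 the call of SKA3 was lost without Huh7-R-A7 replicates 2 or 3 or Huh7-S replicate 2 (adjusted p = 0.056 to 0.062) and that of KNL1 without Huh7-R-A7 replicates 2 or 3 or Huh7-S replicates 1, 2 or 3 (adjusted p = 0.056 to 0.086). NDC80, which names the complex that grips microtubules, read 11.39, 10.89 and 10.91 in Huh7-R-A7, 10.92, 10.30 and 10.23 in Huh7-R, and 11.22, 10.99 and 10.92 in Huh7-S. The parental arrays lay inside the range of the clone arrays, with a log2 difference of 0.02 (95% interval -0.47 to 0.51, adjusted p = 0.96), and the pool did not pass (log2 difference -0.56, 95% interval -1.05 to -0.07, adjusted p = 0.064). Its partner NUF2 did not pass in Huh7-R-A7 (log2 difference -0.25, 95% interval -0.58 to 0.09, adjusted p = 0.21) or Huh7-R (-0.28, adjusted p = 0.15). CENPA, the histone variant that marks the centromere, had a log2 difference of 0.03 in Huh7-R-A7 (95% interval -0.35 to 0.41) and -0.36 in Huh7-R (-0.74 to 0.01), and CENPF, a large protein of the outer kinetochore, -0.50 (adjusted p = 0.069) and -0.39 (0.14).

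The spindle checkpoint had 4 measured members, of which 3 fell in Huh7-R-A7 (median log2 difference -0.54) and 2 in Huh7-R (-0.46). BUB1, a kinase that recruits checkpoint proteins to kinetochores, read 12.02, 11.55 and 11.49 in Huh7-R-A7, 12.15, 11.71 and 11.75 in Huh7-R, and 12.33, 12.26 and 12.24 in Huh7-S. All resistant arrays were below the parental ones, and Huh7-R-A7 passed (log2 difference -0.59, SE 0.16, adjusted p = 0.02) where Huh7-R did not (-0.41, 0.076), but that call was lost without Huh7-R-A7 replicates 2 or 3 or Huh7-S replicates 1 or 2 (adjusted p = 0.05 to 0.073). MAD2L1, which inhibits the CDC20-bound complex, read 9.75, 9.59 and 9.52 in Huh7-R-A7, 9.75, 9.52 and 9.34 in Huh7-R, and 10.22, 10.26 and 10.04 in Huh7-S. BUB3, the adaptor of BUB1, read 10.95, 10.76 and 10.63 in Huh7-R-A7, 10.91, 10.81 and 10.70 in Huh7-R, and 11.47, 11.36 and 11.11 in Huh7-S. Neither overlapped the parental arrays, MAD2L1 being 1.47-fold lower in Huh7-R-A7 (log2 difference -0.55, SE 0.12, adjusted p = 0.0065) and 1.55-fold lower in Huh7-R (log2 difference -0.63, SE 0.12, adjusted p = 0.0033) and BUB3 1.45-fold lower in Huh7-R-A7 (log2 difference -0.53, SE 0.12, adjusted p = 0.0072) and 1.42-fold lower in Huh7-R (log2 difference -0.51, SE 0.12, adjusted p = 0.009). TTK, the kinase MPS1 that starts the checkpoint, showed no such shift, as its arrays spanned 10.10 to 10.49 in Huh7-R-A7, 10.08 to 10.28 in Huh7-R and 10.24 to 10.31 in Huh7-S. Its log2 difference was 0.00 in Huh7-R-A7 (95% interval -0.24 to 0.24) and -0.08 in Huh7-R (-0.32 to 0.15), intervals that do not reach the -0.62 and -0.67 of the list's medians.

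All 5 members with a role in sister chromatid cohesion and anaphase onset were called lower in both groups (median -0.73 in Huh7-R-A7 and -0.73 in Huh7-R). SGO1, shugoshin, which shields centromeric cohesin from early release, read 11.36, 10.95 and 11.08 in Huh7-R-A7, 11.36, 10.49 and 10.58 in Huh7-R, and 12.51, 12.47 and 12.42 in Huh7-S. Replicate 1 of both resistant groups was the highest of its group and still under the parental arrays, and SGO1 was 2.53-fold lower in Huh7-R-A7 (log2 difference -1.34, SE 0.22, adjusted p = 0.0019) and 3.16-fold lower in Huh7-R (log2 difference -1.66, SE 0.22, adjusted p = 0.00067). CDC20, the activator of the anaphase-promoting complex, read 11.49, 11.19 and 11.02 in Huh7-R-A7, 11.31, 10.69 and 10.59 in Huh7-R, and 12.18, 12.43 and 12.24 in Huh7-S. The arrays of resistant and parental cells were apart, and CDC20 was 2.07-fold lower in Huh7-R-A7 (log2 difference -1.05, SE 0.20, adjusted p = 0.0039) and 2.68-fold lower in Huh7-R (log2 difference -1.42, SE 0.20, adjusted p = 0.00091). UBE2C, the ubiquitin-conjugating enzyme of that complex, read 9.50, 9.09 and 8.98 in Huh7-R-A7, 9.51, 9.22 and 9.24 in Huh7-R, and 10.03, 10.02 and 9.73 in Huh7-S. It was 1.66-fold lower in Huh7-R-A7 (log2 difference -0.73, SE 0.15, adjusted p = 0.0064) and 1.52-fold lower in Huh7-R (log2 difference -0.60, SE 0.15, adjusted p = 0.015), and in Huh7-R lost the call without Huh7-R replicates 2 or 3 or Huh7-S replicate 2 (adjusted p = 0.053 to 0.055). ESPL1, or separase, had log2 differences of -0.66 and -0.73 in Huh7-R-A7 and Huh7-R (adjusted p = 0.0011 and 0.00065), and SGO2, the shugoshin paralogue, of -0.44 and -0.73 (0.036 and 0.0037), the first of which fell short when arrays were centred on their medians (0.053), by cyclic loess (0.05) or by quantiles (0.059), and without Huh7-R-A7 replicates 2 or 3 or Huh7-S replicates 1, 2 or 3 (adjusted p = 0.067 to 0.11).

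Kinesin motors held both the largest fall in Huh7-R-A7 and many of the members that did not pass. Of 9, 4 fell in Huh7-R-A7 (median log2 difference -0.39) and 4 in Huh7-R (-0.57). KIF15, a plus-end motor that helps keep spindle poles apart, read 7.64, 7.09 and 7.09 in Huh7-R-A7, 7.61, 6.97 and 7.11 in Huh7-R, and 9.47, 9.29 and 9.21 in Huh7-S. The gap between the highest resistant array and the lowest parental one was wider than the spread of any group, and KIF15 was 4.13-fold lower in Huh7-R-A7 (log2 difference -2.05, SE 0.20, adjusted p = 0.00015) and 4.25-fold lower in Huh7-R (log2 difference -2.09, SE 0.20, adjusted p = 0.00014). KIF2C, or MCAK, a depolymerase that corrects wrong attachments, read 11.42, 11.16 and 11.04 in Huh7-R-A7, 11.15, 10.66 and 10.67 in Huh7-R, and 12.00, 12.11 and 11.85 in Huh7-S. It did not overlap with the parental arrays and was 1.72-fold lower in Huh7-R-A7 (log2 difference -0.79, SE 0.16, adjusted p = 0.0047) and 2.23-fold lower in Huh7-R (log2 difference -1.16, SE 0.16, adjusted p = 0.0007). KIF4A, a chromokinesin of the anaphase midzone, read 10.67, 10.07 and 9.92 in Huh7-R-A7, 10.49, 10.17 and 10.11 in Huh7-R, and 11.33, 10.81 and 10.76 in Huh7-S. Here the highest resistant arrays came close to the lowest parental array, and KIF4A, although 1.68-fold lower in Huh7-R-A7 (log2 difference -0.75, SE 0.23, adjusted p = 0.031) and 1.64-fold lower in Huh7-R (log2 difference -0.72, SE 0.23, adjusted p = 0.036), lost its call in Huh7-R-A7 without Huh7-R-A7 replicates 2 or 3 or Huh7-S replicates 1 or 2 (adjusted p = 0.052 to 0.1) or with only the 6 arrays compared (0.069) and in Huh7-R without Huh7-R-A7 replicate 2, Huh7-R replicates 2 or 3 or Huh7-S replicates 1 or 2 (adjusted p = 0.052 to 0.11).

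KIF11, the Eg5 motor that separates the poles and a partner of KIF15 in that task, fell in Huh7-R (log2 difference -0.66, SE 0.14, adjusted p = 0.0064) and had a log2 difference of -0.39 in Huh7-R-A7 (0.053). KIF14, a motor of cytokinesis, passed in Huh7-R-A7 (-0.45, 0.044) and not in Huh7-R (-0.34, 0.1), and lost the call there without Huh7-R-A7 replicates 2 or 3, Huh7-R replicate 2 or Huh7-S replicates 1, 2 or 3 (adjusted p = 0.062 to 0.13) and after median centring (0.058). Neither group passed for KIF18A, which damps chromosome movements, for the midzone motors KIF20A and KIF23 or for KIF20B. Their log2 differences ran from -0.31 to -0.09 in Huh7-R-A7 and from -0.57 to -0.34 in Huh7-R. KIF23, whose protein pairs with that of RACGAP1, came nearest to the threshold in Huh7-R (log2 difference -0.57, 95% interval -1.04 to -0.10, adjusted p = 0.053), with all 95% intervals of these motors in Huh7-R-A7 reaching above 0.

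Spindle assembly and centriole genes fell in 4 of 6 cases in Huh7-R-A7 (median log2 difference -0.46) and in 6 of 6 in Huh7-R (-0.66). PLK4, the kinase that starts centriole duplication, read 8.45, 8.20 and 8.23 in Huh7-R-A7, 7.80, 7.26 and 6.94 in Huh7-R, and 9.53, 9.57 and 9.42 in Huh7-S. Each group kept its own range, the pool lowest, the clone between and the parental cells highest, and PLK4 was 2.31-fold lower in Huh7-R-A7 (log2 difference -1.21, SE 0.19, adjusted p = 0.0017) and 4.51-fold lower in Huh7-R (log2 difference -2.17, SE 0.19, adjusted p = 9.9e-05). ASPM, a protein of spindle poles whose loss causes microcephaly, read 11.51, 11.19 and 11.10 in Huh7-R-A7, 11.52, 11.15 and 11.12 in Huh7-R, and 12.30, 12.29 and 12.31 in Huh7-S. The parental arrays were nearly equal, every resistant array lay below them, and ASPM was 2.05-fold lower in Huh7-R-A7 (log2 difference -1.03, SE 0.14, adjusted p = 0.00063) and 2.05-fold lower in Huh7-R (log2 difference -1.04, SE 0.14, adjusted p = 0.00063). HMMR, a microtubule-binding protein of the poles, read 9.98, 9.92 and 9.83 in Huh7-R-A7, 9.95, 9.57 and 9.43 in Huh7-R, and 10.76, 10.32 and 10.30 in Huh7-S. It was 1.46-fold lower in Huh7-R-A7 (log2 difference -0.55, SE 0.16, adjusted p = 0.027) and 1.76-fold lower in Huh7-R (log2 difference -0.81, SE 0.16, adjusted p = 0.0048), without overlap, but its call in Huh7-R-A7 was lost without Huh7-R-A7 replicates 1, 2 or 3 or Huh7-S replicate 1 (adjusted p = 0.054 to 0.083). NUSAP1, a microtubule bundler, fell in both (log2 difference -0.37, SE 0.10, adjusted p = 0.019 in Huh7-R-A7 and log2 difference -0.41, SE 0.10, adjusted p = 0.012 in Huh7-R), and not in Huh7-R-A7 without Huh7-R-A7 replicates 2 or 3 (adjusted p = 0.059 to 0.065). TPX2, which targets AURKA to the spindle, and DLGAP5, a stabiliser of kinetochore fibres, passed in Huh7-R (-0.51, 0.021 and -0.47, 0.033) and not in Huh7-R-A7 (-0.36, 0.075 and -0.28, 0.16). In Huh7-R the TPX2 call was lost without Huh7-R replicates 2 or 3 or Huh7-S replicates 1 or 2 (adjusted p = 0.054 to 0.078) and the DLGAP5 call without Huh7-R replicates 2 or 3 or Huh7-S replicates 1, 2 or 3 (adjusted p = 0.07 to 0.11), after median centring (0.053) or with only the 6 arrays compared (0.056).

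Chromosomal passengers and cytokinesis genes fell in 3 of 6 cases in Huh7-R-A7 (median log2 difference -0.38) and in 5 of 6 in Huh7-R (-0.64). PRC1, which cross-links midzone microtubules, read 11.84, 11.36 and 11.41 in Huh7-R-A7, 11.87, 11.31 and 11.28 in Huh7-R, and 12.22, 12.65 and 12.51 in Huh7-S. AURKB, the kinase of the passenger complex that corrects attachments and guides cytokinesis, read 8.75, 8.58 and 8.27 in Huh7-R-A7, 8.74, 8.43 and 8.17 in Huh7-R, and 9.44, 9.46 and 9.21 in Huh7-S. RACGAP1, of the centralspindlin complex, read 11.57, 11.36 and 11.22 in Huh7-R-A7, 11.37, 11.11 and 10.95 in Huh7-R, and 11.77, 11.93 and 11.79 in Huh7-S. In all 3 genes the resistant arrays lay below the parental ones. PRC1 was 1.9-fold lower in Huh7-R-A7 (log2 difference -0.92, SE 0.20, adjusted p = 0.0076) and 1.96-fold lower in Huh7-R (log2 difference -0.97, SE 0.20, adjusted p = 0.0059). AURKB was 1.79-fold lower in Huh7-R-A7 (log2 difference -0.84, SE 0.17, adjusted p = 0.0053) and 1.9-fold lower in Huh7-R (log2 difference -0.93, SE 0.17, adjusted p = 0.0032). RACGAP1 was 1.36-fold lower in Huh7-R-A7 (log2 difference -0.45, SE 0.13, adjusted p = 0.022) and 1.61-fold lower in Huh7-R (log2 difference -0.69, SE 0.13, adjusted p = 0.0032), and its call in Huh7-R-A7 was lost without Huh7-R-A7 replicates 2 or 3 or Huh7-S replicate 2 (adjusted p = 0.066 to 0.079). BIRC5, or survivin, the passenger subunit that also inhibits apoptosis, passed in Huh7-R (-0.40, 0.029) and not in Huh7-R-A7 (-0.20, 0.22), as did ECT2, the exchange factor that activates RhoA at the cleavage furrow (-0.58, 0.031 in Huh7-R and -0.32, 0.2 in Huh7-R-A7). Their calls were lost for BIRC5 without Huh7-R replicates 2 or 3 or Huh7-S replicates 1 or 2 (adjusted p = 0.066 to 0.095) or with only replicates 2 and 3 of each group (0.06), and for ECT2 without Huh7-R replicates 2 or 3 or Huh7-S replicates 2 or 3 (adjusted p = 0.089 to 0.1), after median centring (0.05) or with only the 6 arrays compared (0.055). ANLN, the anillin scaffold of the contractile ring, varied more between replicates than between groups, at 15.39, 14.73 and 14.78 in Huh7-R-A7, 15.30, 14.59 and 14.72 in Huh7-R, and 14.98, 15.19 and 15.17 in Huh7-S. Its replicate 1 in both resistant groups was above every parental array and the other 2 replicates were below them, with log2 differences of -0.15 in Huh7-R-A7 (95% interval -0.68 to 0.39) and -0.24 in Huh7-R (-0.78 to 0.29).

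**Figure D2:**
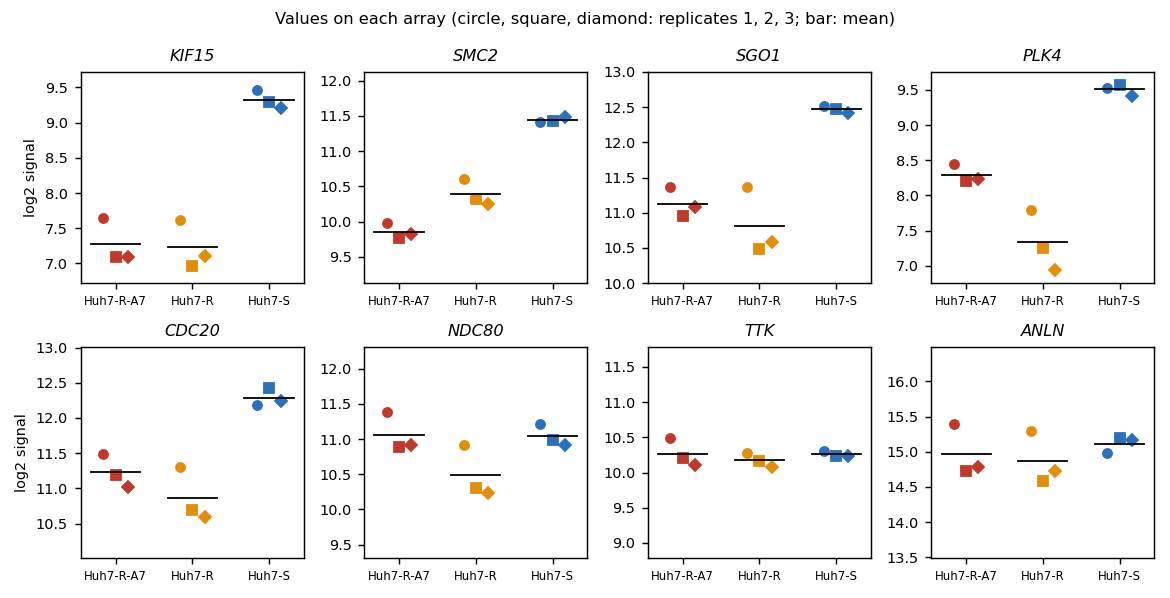
Log2 signal (y axis, a range of its own in each panel) on every array of Huh7-R-A7, Huh7-R and Huh7-S for KIF15, SMC2, SGO1, PLK4, CDC20, NDC80, TTK and ANLN, with circles, squares and diamonds for replicates 1, 2 and 3 and bars for group means. KIF15, SGO1 and CDC20 show resistant arrays far under the parental ones, SMC2 and PLK4 show 3 separate groups, and TTK and ANLN overlap.

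The replicates of the resistant groups were not alike for these genes. Replicate 1 was the highest of the 3 arrays for 54 of 54 members in Huh7-R-A7 and for 54 of 54 in Huh7-R, where it was the highest for 37.4% and 41.6% of all genes. The members of replicate 1 lay a median of 0.37 above the mean of the other 2 arrays in Huh7-R-A7 and 0.43 in Huh7-R on the log2 scale, against 0.00 and 0.02 for all genes. In Huh7-S, replicate 1 was the highest for 28 of 54 members (51.9%) and for 43.7% of all genes. Set against the mean of the Huh7-S arrays, the median deviation of the members was -0.38, -0.75 and -0.67 on the Huh7-R-A7 arrays, -0.42, -0.81 and -0.83 on the Huh7-R arrays, and 0.05, 0.03 and -0.06 on the Huh7-S arrays. Every resistant array was thus below the parental arrays in its median, replicate 1 by the least.

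Counted array by array, 41, 53 and 52 of the 54 members were below all 3 Huh7-S values on the Huh7-R-A7 arrays, and 45, 54 and 54 on the Huh7-R arrays, where the share of all genes was between 35.8% and 43.3%. Hepatocyte-lineage markers deviated by medians of -1.98, -1.36 and -1.30 on the Huh7-R-A7 arrays and -1.85, -1.37 and -1.35 on the Huh7-R arrays, so that replicate 1 was the lowest array for them and the highest for the members. The median of 10 housekeeping genes stayed between 0.10 and 0.18 on the 6 resistant arrays, with 4 called higher and 1 lower in Huh7-R-A7 and 5 higher and 2 lower in Huh7-R. Among all genes 18.0% were called higher and 24.6% lower in Huh7-R-A7, and 19.0% and 26.2% in Huh7-R. Fitted with only replicates 2 and 3 of the resistant groups and all Huh7-S arrays, a choice made after the data were seen, 46 members fell in Huh7-R-A7 (median -0.74), where 21.4% of all genes were called lower, and 51 in Huh7-R (median -0.80), where 25.0% were. What replicate 1 of the 2 groups shared was not tested, and the labels name no day or batch.

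**Figure D3:**
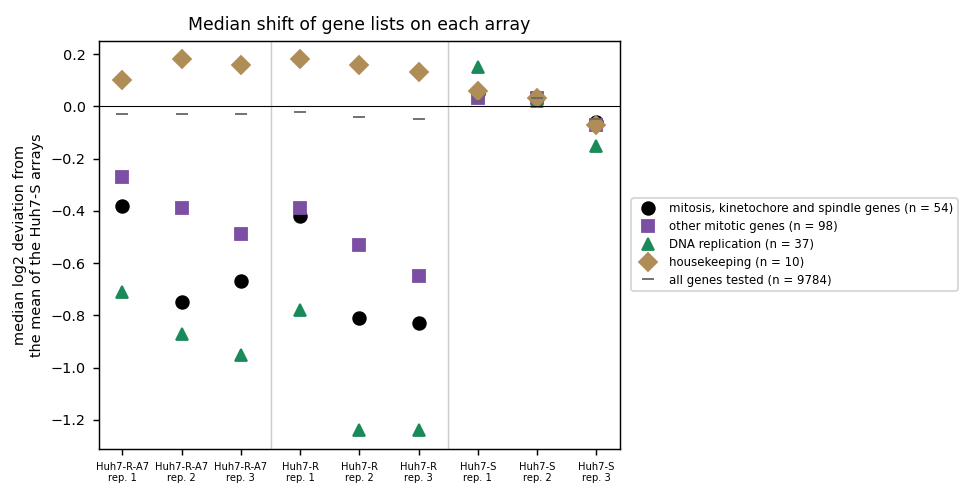
Median log2 deviation from the mean of the Huh7-S arrays (y axis) on each array (x axis) for the 54 mitosis, kinetochore and spindle genes, 98 other mitotic genes, 37 DNA replication genes, 10 housekeeping genes and all 9784 genes. The first 3 lists are below 0 on all 6 resistant arrays, with replicate 1 the least shifted in each group, and the housekeeping median lies between 0.10 and 0.18 there.

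Few of these genes differed between clone and pool. In Huh7-R-A7 against Huh7-R, 1 of 54 members passed as lower and 1 as higher, where 4.52% and 4.11% of all genes were called. Differences were above 0 for 43 of 54 members and for 5060 of all 9784 genes. The median of the members was 0.11, against 0.00 for all genes, and ran from 0.01 to 0.25 without 1 array. SMC2 was 1.46-fold lower in Huh7-R-A7 (log2 difference -0.54, SE 0.10, adjusted p = 0.018), and its clone arrays, 9.98, 9.76 and 9.82, were all below the pool arrays, 10.61, 10.32 and 10.25. The clone arrays were all below the pool arrays in 1607 of all 9784 genes. PLK4 was 1.95-fold higher in Huh7-R-A7 (log2 difference 0.96, SE 0.19, adjusted p = 0.024), at 8.45, 8.20 and 8.23 in Huh7-R-A7 and 7.80, 7.26 and 6.94 in Huh7-R. The SMC2 call was lost without Huh7-R-A7 replicates 2 or 3 (adjusted p = 0.067 to 0.07) and that of PLK4 without Huh7-R-A7 replicates 1, 2 or 3 or Huh7-R replicates 2 or 3 (adjusted p = 0.056 to 0.092). With only the 6 clone and pool arrays in the fit PLK4 had an adjusted p of 0.056.

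Same-numbered clone and pool arrays deviated together. With the replicate number as a block, 1 member was lower and 4 were higher in Huh7-R-A7, where NCAPH (log2 difference 0.35, adjusted p = 0.031), CENPA (0.40, 0.026) and NDC80 (0.58, 0.017) joined PLK4 (0.96, 0.019). In that fit 5.22% of all genes were called lower and 5.11% higher. Without the block NDC80 had an adjusted p of 0.15 and CENPA of 0.2. CDC25C read 8.03, 7.81 and 7.81 in Huh7-R-A7, 7.68, 7.64 and 7.61 in Huh7-R, and 8.22, 7.82 and 7.81 in Huh7-S. Its clone arrays were all above its pool arrays, as in 1466 of all 9784 genes, but its difference did not pass (log2 difference 0.24, 95% interval -0.03 to 0.51, adjusted p = 0.28).

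Beyond the list, 98 of 114 other mitotic genes were measured, of which 53 fell and 3 rose (CDC25B, CDC16 and NEK7) in Huh7-R-A7 (median log2 difference -0.37) and 58 fell and 1 rose (CDC16) in Huh7-R (-0.48). The shares of all genes were 24.6% lower and 18.0% higher in Huh7-R-A7, and 26.2% and 19.0% in Huh7-R. CDC25A, a phosphatase that activates CDK2 and CDK1, read 8.08, 7.91 and 7.78 in Huh7-R-A7, 8.05, 7.45 and 7.29 in Huh7-R, and 9.88, 9.88 and 9.76 in Huh7-S. It differed from Huh7-S by -1.92 log2 units (SE 0.18, adjusted p = 0.00013) in Huh7-R-A7 and of -2.24 (SE 0.18, 6.5e-05) in Huh7-R. HAUS6, of the augmin complex that branches spindle microtubules, had log2 differences of -1.75 and -1.99 and the kinesin KIF18B of -1.35 and -1.41 in Huh7-R-A7 and Huh7-R. The cohesin regulator PDS5A had -1.33 and -1.11, and HJURP, the chaperone of CENPA, -0.90 and -1.64, all of them called.

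CDC25B, the CDK1 phosphatase of early mitosis, went the other way in the clone. It read 10.03, 9.82 and 9.78 in Huh7-R-A7, 8.97, 8.84 and 8.55 in Huh7-R, and 8.78, 8.98 and 8.89 in Huh7-S, so that the clone stood above both other groups, which overlapped. The log2 difference was 0.99 in Huh7-R-A7 (SE 0.12, adjusted p = 0.00036) and -0.10 in Huh7-R (SE 0.12, 0.53), and 1.09 between clone and pool (SE 0.12, 0.0017). WEE1, the kinase that restrains CDK1, was lower in Huh7-R-A7 than in both Huh7-S (-0.98, 0.00094) and Huh7-R (-0.70, 0.023). PIMREG was higher in Huh7-R-A7 than in Huh7-R by 1.09 (0.0049), as were MASTL, the Greatwall kinase, by 0.81 (0.042) and ANAPC10, a subunit of the anaphase-promoting complex, by 0.55 (0.001). These 4 were the genes of the list called higher in Huh7-R-A7 than in Huh7-R, and WEE1 and PDS5A (-0.21, 0.045) those called lower. Of the 6, CDC25B, PIMREG and ANAPC10 kept their call in all 9 fits without 1 array, while WEE1 lost it in 4 of them, MASTL in 7 and PDS5A in 8. CDC16 and NEK7, whose rises in Huh7-R-A7 were small (0.24 and 0.23), lost theirs in 8 and 4. CDC16, NEK7 and, between clone and pool, PDS5A are named only because their values were seen.

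Of 24 measured regulators that control transcription of mitotic genes, 10 fell and 1 rose in Huh7-R-A7 (median log2 difference -0.18) and 11 fell and 2 rose in Huh7-R (-0.24). Of all genes 24.6% were called lower and 18.0% higher in Huh7-R-A7, and 26.2% and 19.0% in Huh7-R. Among the regulators the rises were LIN37, a MuvB subunit, in Huh7-R-A7 (0.56, adjusted p = 0.016) and the CDK inhibitors CDKN1A (adjusted p = 0.026) and CDKN1B (0.31, 0.026) in Huh7-R, the inhibitors being named after their values were seen. CDKN1A read 6.00, 6.01 and 6.31 in Huh7-R and 5.80, 5.80 and 5.81 in Huh7-S, where it was under the log2 6 taken as noise, so that no size is given for its difference. LIN37 lost its call in 2 of the 9 fits without 1 array, CDKN1A in 2 and CDKN1B in 4. With only the 6 arrays compared neither inhibitor passed (0.054 for CDKN1A and 0.071 for CDKN1B), and CDKN1A did not after quantile normalization (0.053) or with only replicates 2 and 3 of each group (0.058). E2F8, a repressor of the E2F family, read 9.21, 8.71 and 8.62 in Huh7-R-A7, 9.75, 9.36 and 9.31 in Huh7-R, and 11.29, 11.18 and 11.02 in Huh7-S. It had log2 differences of -2.32 in Huh7-R-A7 (SE 0.18, adjusted p = 4.5e-05) and -1.69 in Huh7-R (SE 0.18, 0.00022). The related E2F7 passed in Huh7-R (-1.52, 0.00081) and not in Huh7-R-A7 (-0.49, 0.098), and was higher in Huh7-R-A7 than in Huh7-R by 1.03 (0.025), a call lost without Huh7-R-A7 replicates 1, 2 or 3 or Huh7-R replicates 2 or 3 (adjusted p = 0.057 to 0.098). MYBL2, or B-MYB, had differences of -0.84 in Huh7-R-A7 and -1.26 in Huh7-R (adjusted p = 0.001 and 0.00014), E2F1 of -1.02 and -1.06, and LIN54, the MuvB subunit that binds the CHR, of -0.82 and -0.77. FOXM1, which activates G2 and mitotic genes, read 12.02, 11.86 and 11.71 in Huh7-R-A7, 11.86, 11.50 and 11.37 in Huh7-R, and 11.98, 12.19 and 12.02 in Huh7-S. Its difference was -0.20 in Huh7-R-A7 (95% interval -0.52 to 0.12, adjusted p = 0.27) and -0.49 in Huh7-R (-0.80 to -0.17, 0.022), where the call was lost without Huh7-R replicates 2 or 3 or Huh7-S replicate 2 (adjusted p = 0.072 to 0.075).

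DNA replication genes, which are expressed before mitosis, had a lower median than the members in both groups. Of 37 measured, 31 fell in Huh7-R-A7 (median log2 difference -0.85) and 34 in Huh7-R (-1.08), and none rose in limma (0 at an unadjusted p below 0.05 as well). Among all genes 24.6% and 26.2% were called lower in these comparisons. MCM6, of the replicative helicase, read 9.81, 9.71 and 9.65 in Huh7-R-A7, 10.65, 10.43 and 10.30 in Huh7-R, and 12.49, 13.05 and 12.90 in Huh7-S. The groups did not overlap, and the log2 differences were -3.09 in Huh7-R-A7 (SE 0.15, adjusted p = 5.4e-06) and -2.35 in Huh7-R (SE 0.15, 1.9e-05). The other helicase subunits MCM5 (-2.40 and -2.37) and MCM2 (-2.05 and -2.16) and the origin protein ORC1 (-1.78 and -1.97) fell as well. In Huh7-R-A7 against Huh7-R, MCM6 was called lower (-0.74, adjusted p = 0.024) and MCM10, which activates that helicase, higher (1.13, 0.034), calls lost in 5 and 7 of the 9 fits without 1 array. Whether replication and mitosis genes differ in their shift was not tested. Replicate 1 was the highest of 3 arrays for 29 of 37 replication genes in Huh7-R-A7 and 33 in Huh7-R, and for 71 and 75 of the 98 other mitotic genes.

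**Figure D4:**
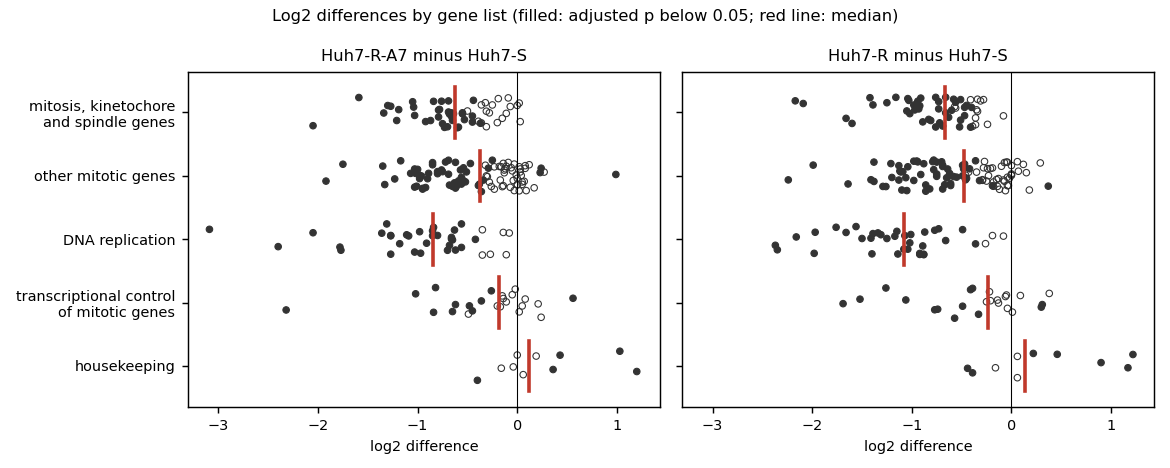
Fitted log2 differences (x axis) of single genes in 5 lists (y axis), for Huh7-R-A7 minus Huh7-S on the left and Huh7-R minus Huh7-S on the right, with filled points for an adjusted p below 0.05 and a red line at each median. Medians run from the housekeeping genes (0.12 and 0.14) through transcriptional control (-0.18 and -0.24), other mitotic genes (-0.37 and -0.48) and the 54 mitosis, kinetochore and spindle genes (-0.62 and -0.67) to DNA replication (-0.85 and -1.08).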

How the data were processed

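RNA from 3 arrays each of Huh7-R-A7, Huh7-R and Huh7-S was measured on Affymetrix Human Transcriptome Arrays 2.0. The deposited values are log2 signals that the authors made by RMA in Affymetrix Expression Console; its version and the genome build are not given in the sources used here. Of 11013 probe sets, 9851 carried 1 gene symbol, 624 several and 538 none; 77 symbols were updated, probe sets of the same gene were averaged (67 genes), and 9784 genes were tested. No probe set of the deposited table failed the filter of log2 6 on over 85% of arrays. The study's methods apply that same filter, so the genes tested may be those it left and not the whole array. At 60.0% of probe sets, 8 members among them, some arrays hold exactly equal values as deposited, before rounding.

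Differences were fitted with limma 3.58.1 (R 4.3.3; lmFit, eBayes with trend, all 9 arrays, group as the only term), with Benjamini-Hochberg adjustment over all genes; p-values measure the spread between these arrays. The procedure was tested on simulated data. Python 3.11.15 with pandas 2.3.3, numpy 2.4.6 and matplotlib 3.10.9 did the rest. Members and lists were chosen with earlier results of these data known. Values on every array are given for the 3 members of each role with the largest difference in Huh7-R-A7 against Huh7-S and the 3 largest of each other comparison; of other lists, at most 4 members per comparison were named by the same rule, while ANLN, CDC25C and TTK and the further genes of those lists were chosen after their values were seen. Same-numbered arrays of Huh7-R-A7 and Huh7-R deviated together (correlations 0.6, 0.49 and 0.42), those of Huh7-S with neither (-0.21, -0.09 and -0.07; -0.11, -0.09 and 0.1); this pairing comes from the data, since the labels name no shared day. Other fits left out arrays or groups, changed the normalization, filter, thresholds, variance prior or choice of probe set, weighted arrays or used the replicate block.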

Additional observations from a re-analysis of the deposited data

Results flagged for a closer look

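SMC2 and PLK4 are listed because the clone and the pool, both set against the same Huh7-S arrays, differed by a test of that difference itself. For SMC2 the log2 difference of Huh7-R-A7 and Huh7-R was -0.54 (limma, adjusted p = 0.018) and all 3 clone arrays were below all 3 pool arrays, as in 1607 of all 9784 genes. For PLK4 it was 0.96 (adjusted p = 0.024) and all 3 clone arrays were above all 3 pool arrays, as in 1466 of all genes. Of the 54 members these were the 2 whose difference passed, where 4.52% of all genes were called lower and 4.11% higher, so that the members were called no more often than other genes. With the replicate block their adjusted p was 0.02 and 0.019, but 0 of the 2 calls held in every fit: that of SMC2 was lost in 2 of the 9 fits without 1 array and that of PLK4 in 5.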

How the results depend on the processing

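The falls against Huh7-S held their direction in every fit, and 25 of the 36 calls in Huh7-R-A7 and 32 of the 41 in Huh7-R were kept in every one of 22 other fits that held the gene, the stricter thresholds aside (3 of them, CCNB1, MAD2L1 and SGO1, were in 21). Without 1 array, between 25 and 40 members were called lower in Huh7-R-A7 (median -0.74 to -0.54) and between 32 and 49 in Huh7-R (-0.80 to -0.61), and 0 to 5 were called higher and 0 to 1 lower in Huh7-R-A7 against Huh7-R (median 0.01 to 0.25). In those fits 19.5% to 25.4% of all genes were called lower in Huh7-R-A7 and 19.4% to 26.5% in Huh7-R. Between clone and pool 1.87% to 6.19% of all genes were called higher and 2.1% to 7.4% lower. At an adjusted p below 0.01, 24 and 28 members remained called lower in Huh7-R-A7 and Huh7-R, and between clone and pool 0 were lower and 0 higher. By the limits in the study's methods (unadjusted p under 0.0001, and either over 3-fold or below 0.25-fold) the counts were 1 lower in Huh7-R-A7, 2 lower in Huh7-R, and 0 lower and 0 higher between clone and pool. The shares of all genes under these stricter limits were not counted, so these counts cannot be set against them. The number of members higher in Huh7-R-A7 than in Huh7-R depended on the fit. It was 4 with the replicate block, 0 with only the arrays of the groups compared, 7 with array weights, 16 with only replicates 2 and 3 of each group (2 lower), and 4 with only replicates 2 and 3 of the resistant groups, a choice made after seeing the data. Of all genes 5.11%, 5.42%, 13.2%, 9.9% and 4.1% were called higher in those fits. The cause was not tested. Against Huh7-S, whose numbers do not pair with the others, the replicate block gave 42 lower in Huh7-R-A7 and 48 in Huh7-R. In that fit 25.9% and 27.3% of all genes were called lower. Median centring, cyclic loess, quantile normalization, the variance prior and the genes with 9 different values left the counts of members lower within 1.5 times of 36 and 41. The last of these fits held 46 members, with 36 and 38 called lower, against 37.7% and 39.1% of all its genes. The filter on low values and the choice of probe set, also among the 22 fits, could not change any member's own values. Each member had 1 probe set and none lay below 6.94. With 3 arrays a group, differences near 0.4 on the log2 scale stand close to the threshold, and nothing here measures proteins, cell numbers or the share of cells in mitosis.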
